A study of Mus musculus with 20 samples.

Results

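The regions described here carried histone H3 acetylated at lysine 27 (H3K27ac) in 3 cell types at once. These were mouse embryonic stem (ES) cells, neural progenitor cells (NPCs) and liver. Promoter positions were not used, and distal here means only that the promoter mark H3K4me3 was low in ES cells and liver. There were 512 such regions among the 40658 distal regions with H3K27ac in at least 1 of the 3 cell types. The 512 are called shared regions below. They were chosen by chromatin immunoprecipitation and sequencing (ChIP-seq) signal in 1 kb bins of chromosomes 1 to 19. A bin was kept where H3K27ac was at least 2 RPM (distinct reads scaled to the depth of the library) in each of 2 ES libraries, in NPCs and in liver. In each, H3K27ac also had to reach at least 2 times the level of total histone H3 plus 0.1 RPM, with ES H3 used for ES cells and NPCs and liver H3 for liver. A bin counted as distal where H3K4me3, a mark of promoters, was under 1.5 RPM in ES cells and in liver, in the bin and in both of its neighbours. Kept bins within 1 kb of each other were joined. Membership depended on where the bins start: with bins moved by 500 bp there were 487 regions, which overlapped 279 of the 512.

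The series held 20 libraries in 16 groups from ES cells, NPCs, whole liver, mouse embryonic fibroblasts (MEFs) and induced pluripotent stem (iPS) cells. ES cells were of the V6.5 line (C57BL/6-129), except for 2 of the 3 H3K4me1 libraries. Of those, 1 came from ES cells of that background with a doxycycline-inducible 4F2A transgene, and 1 from the inbred C57BL/6 line j21. ES and iPS cells were grown on irradiated MEF feeders and then for 1 or 2 passages off them. The iPS cells (O6) were derived from MEFs. NPCs came from 4-day-old embryoid bodies selected in ITSFn medium and expanded with FGF and EGF, and their label gives the background of the V6.5 ES cells. Liver was labelled perfused whole liver and was dissociated and filtered, so it held all cell types that passed those steps. No treatment was compared, and age, sex and strain of the liver and MEF donors were not given in the labels. There were 3 libraries of ES H3K4me1, 2 of ES H3K27ac, 2 of ES p300 and 1 of every other group. The 3 ES H3K4me1 libraries came from ES cells of different genotype, so the spread behind the H3K4me1 p-values mixes genotype and technical differences. For the ES p300 and ES H3K27ac pairs, the labels do not say whether the libraries came from separate cultures. The spread behind the p300 p-values may therefore be technical.

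Acetylation of H3K27 is placed by p300 and its relative CBP and marks enhancers and promoters in use, while monomethylation of H3K4 (H3K4me1) lies over enhancers both in use and idle. Enhancers are the regulatory elements that differ most between cell types, and most distal acetylation is found in few of them. No gene position or sequence of the genome build of the files was used here, so regions are given by their coordinates on mm8, the build that the positions fit, with no gene name and no sequence. For the same reason the labelled cell types were not checked against marker genes.

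Libraries held 2452512 reads (iPS H3K4me1) to 18216119 reads (MEF H3K4me1), and each position and strand was counted once. Distinct reads on the autosomes ranged from 694055 for Rfx1, 2294246 for iPS H3K4me1 and 2319684 for ES H3K4me3 to 14280972 for MEF H3K4me1. Repeated reads made up 72.5% of the Rfx1 library and 70.0% of the ES H3K4me3 library, against at most 20.7% of any other. At this depth the H3K4me3 limit of 1.5 RPM stood for 3.48 reads in ES cells, so a weak promoter mark could pass as none. Levels below are RPM per kb of region.

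Sharing of distal acetylation was rare. Before H3K4me3 was considered, 17557 bins passed the acetylation limits in all 3 cell types, and the distal rule kept 607 of them (3.457%). Those 607 bins were 2.202% of the distal acetylated bins of ES cells, 3.731% of those of NPCs and 1.838% of those of liver. For comparison, 1498 regions passed in ES cells and NPCs but not in liver, 1662 in ES cells and liver but not in NPCs, and 1196 in NPCs and liver but not in ES cells. A single cell type alone had 12665 (ES), 8237 (NPC) and 14888 (liver) regions. The shared regions were narrow, with 436 of 512 at 1 kb, 60 at 2 kb and 16 at 3 to 7 kb.

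**Figure D1:**
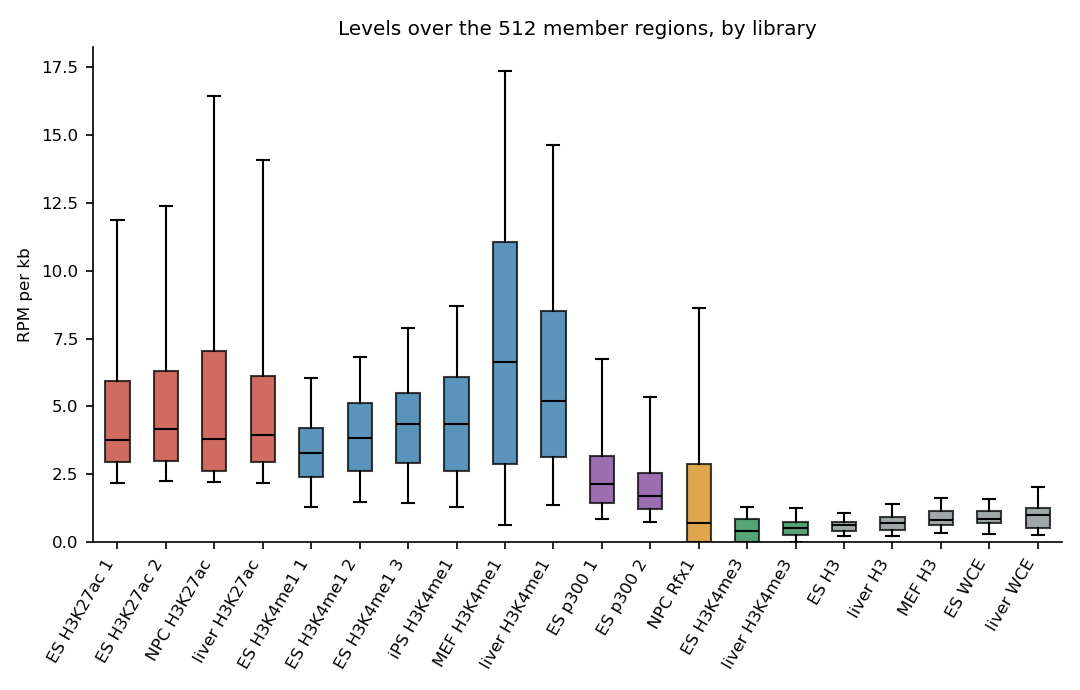
Levels over the 512 shared regions in each library (vertical axis, RPM per kb; box, quartiles; line, median; whiskers, 5th to 95th percentile). H3K27ac sits at medians of 3.76 to 4.17 in its 4 libraries, MEF H3K4me1 has the highest median at 6.65, and the H3, WCE and H3K4me3 libraries lie near or under 1.

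H3K27ac over the shared regions was chosen by these values, so its levels are a description with no test. The median was 3.76 and 4.17 RPM per kb in the ES libraries, 3.82 in NPCs and 3.96 in liver. Each cell type was the highest at about the same number of regions: ES cells at 171, NPCs at 169 and liver at 172. Within a region the 4 libraries often differed, with a median ratio of the highest to the lowest of 2.53 and a largest ratio of 20.88. At 150 regions (29.3%) the 4 libraries, with the ES replicates kept apart, lay within 2-fold of each other. Between the ES replicates alone the median ratio was 1.217 and the largest 2.28. A ratio over more libraries is the larger by construction, so these are not like measures.

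Levels of different cell types were nearly uncorrelated over the shared regions. Over the 512 regions the rank correlation was 0.796 between the ES libraries. It was 0.045 and 0.068 between ES and NPC libraries, −0.010 and −0.011 between ES and liver libraries, and 0.053 between NPCs and liver. These are descriptions over regions that had all passed the same lower limits, which narrows their range. Many regions were close to the limits: all 4 libraries reached 3 RPM per kb at 162 regions, 4 at 47 and 5 at 19.

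**Figure D2:**
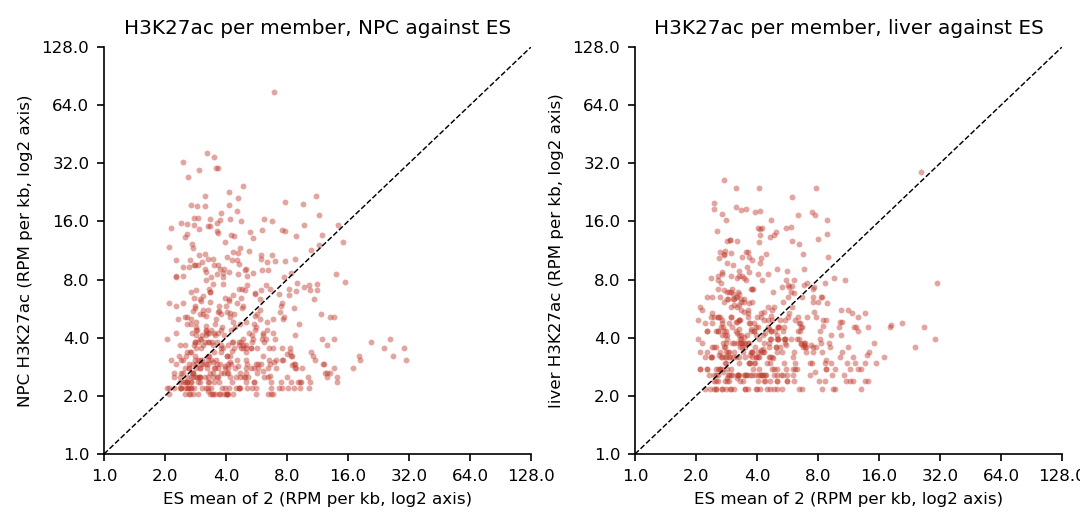
H3K27ac of each shared region in NPCs (left) and liver (right) against the mean of the 2 ES libraries, in RPM per kb on log2 axes; the dashed line marks equal levels. The points spread to both sides of the line with no shared trend, and the limit of 2 RPM cuts the cloud off on the left and below.

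At the edge of the rule, chr1:39680001-39681000 was kept with 2.28 and 2.02 in ES cells, 14.8 in NPCs and 3.76 in liver. Also just inside were chr1:72773001-72774000, with 2.85, 2.02, 2.2 and 4.16 in the same order, and chr2:52813001-52814000, with 2.05, 2.02, 3.96 and 3.96. Just outside, chr1:174039001-174040000 (2.05, 2.14, 11.3 and 1.98), chr1:182149001-182150000 (4.91, 3.69, 6.61 and 1.98) and chr4:132679001-132680000 (3.99, 4.52, 6.90 and 1.98) each missed by their liver value alone. So some regions left out by the rule are acetylated in all 3 cell types to nearly the same degree as some kept.

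The region with the highest floor of acetylation was chr15:77641001-77642000. Its H3K27ac was 9.01 and 10.1 in ES cells (79 and 85 reads), 19.8 in NPCs (135 reads) and 8.12 in liver (41 reads). On the same chromosome, chr15:77625001-77631000 was one of the widest shared regions at 6 kb. It held 8.97 and 8.73 in ES cells, 13.4 in NPCs and 6.04 in liver. NPCs were highest at both, and the 2 regions lay 10 kb apart.

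Liver led at 3 of the next 4 regions by that ranking. H3K27ac at chr6:128068001-128069000 was 7.76 and 7.97 in ES cells, 9.98 in NPCs and 24.0 in liver, whose exact 95% Poisson interval (counting error only) was 19.9 to 28.6. At chr2:26328001-26331000 it was 9.77 and 8.05 in ES cells, 7.00 in NPCs and 13.9 in liver. At chr14:69071001-69072000 it was 8.56 and 6.90 in ES cells, 8.22 in NPCs and 17.2 in liver. The last of these, chr2:27561001-27563000, had 6.84 and 11.2 in ES cells, 7.71 in NPCs and 10.5 in liver, so the ES libraries alone spanned the values of the other cell types.

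The widest shared region, chr11:117160001-117167000, covered 7 kb. Its H3K27ac was lower than at the regions above, at 5.10 and 4.47 in ES cells, 7.15 in NPCs and 3.14 in liver. The regions of 4 kb were chr2:152509001-152513000, chr8:73581001-73585000 and chr11:60016001-60020000, with ES values of 3.42 to 7.41, NPC values of 3.41 to 3.56 and liver values of 3.52 to 7.53. All 5 of these wide regions lay 1 kb from a bin with H3K4me3.

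That closeness to promoter marks held for many shared regions. An H3K4me3 bin of ES cells or liver lay within 1 kb of 165 regions (32.2%), within 5 kb of 341 (66.6%) and within 50 kb of 99.6%. Over all distal H3K27ac regions the shares were 25.4%, 51.8% and 95.6%. Closeness was not particular to shared regions: regions of ES cells and liver had 33.2% within 1 kb and 70% within 5 kb. Those of ES cells and NPCs had 21.1% and 56.4%, and those of NPCs and liver 17.8% and 50%. Inside the shared regions H3K4me3 was low by the rule, with 8 regions at 0 reads in both libraries. It was at least 1 RPM in a bin at 82 regions in ES cells and at 117 in liver. Away from the midpoints H3K4me3 rose, from a mean of 0.539 within 200 bp to 1.45 at 4000 to 5000 bp in ES cells and from 0.584 to 2.40 in liver. The rule kept H3K4me3 low at the centre, so a rise outward was built in. Regions of ES cells and liver rose alike, from 0.473 to 1.52 in ES cells and from 0.492 to 2.35 in liver. Promoter marks of NPCs and MEFs were not analysed here, so a promoter used only in those cells can stand among the shared regions.

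Chromosome 11 held 66 shared regions (0.542 per Mb), followed by chromosome 2 with 53 and chromosome 5 with 49, while chromosome 13 held 7 (0.058 per Mb). Chromosomes 11 and 2 also held the most distal H3K27ac regions of any class (3278 and 3224), against 1542 on chromosome 13. Shared regions were 2.01% of all distal H3K27ac regions on chromosome 11, 1.64% on chromosome 2, 1.75% on chromosome 5 and 0.454% on chromosome 13. The median distance between neighbours was 678 kb, and 43 of 493 neighbouring pairs lay within 10 kb.

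H3K4me1 was not used to choose the regions, and MEFs and iPS cells were not used at all. A region was counted as marked where H3K4me1 was at least 2 RPM per kb and at least 2 times H3 plus 0.1 in every library of the cell type, with ES H3 standing in for iPS cells. ES and liver H3 also took part in the choice of regions, and MEF H3 did not. H3K4me1 marked 398 shared regions in ES cells (77.7%, against 32.8% of all distal H3K27ac regions), 454 in iPS cells (88.7%, against 43.8%) and 456 in liver (89.1%, against 43.9%). Classes acetylated in the same cell type came close in ES cells, iPS cells and liver. ES marking was 75.6% at regions of ES cells and liver and 70.1% at those of ES cells and NPCs, iPS marking 85.9% and 84.6%, and liver marking 85.4% at regions of ES cells and liver and 84.1% at those of NPCs and liver. In MEFs H3K4me1 marked 405 shared regions (79.1%, against 29.3%), with 67.5% at regions of NPCs and liver, 58.2% at those of ES cells and NPCs and 48.5% at those of ES cells and liver. Hence most shared regions were also marked in a cell type that had no part in choosing them.

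All 4 cell types were marked at 280 shared regions (54.7%), against 5.04% of all distal H3K27ac regions, and none at 3 (0.586%, against 18.0%). The same share was 12.4% for regions acetylated in ES cells and NPCs, 33.9% for ES cells and liver, 8.86% for NPCs and liver and 3.51% for ES cells alone. The next patterns were ES, iPS and liver without MEF (57 regions), iPS, MEF and liver without ES (47) and ES, iPS and MEF without liver (31). These differences between classes were not tested.

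**Figure D3:**
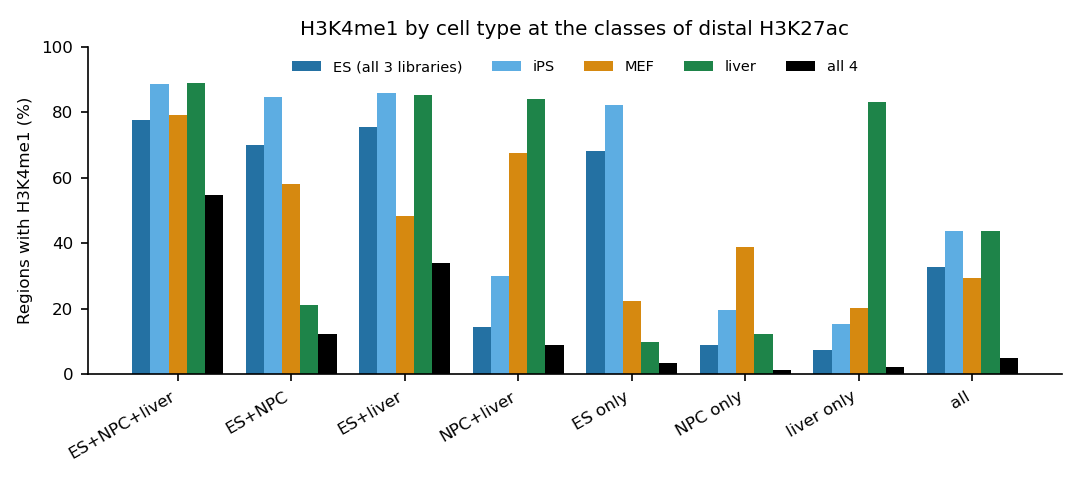
Share of regions with H3K4me1 (vertical axis, %) in ES cells (all 3 libraries), iPS cells, MEFs, liver and all 4 (bars), for the 7 classes of distal H3K27ac and all regions (horizontal axis). The shared regions stand at 77.7 to 89.1% in each cell type and 54.7% in all 4, against 5.04% of all regions in all 4.

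MEF H3K4me1 was the strongest of these signals. Its median over shared regions was 6.65 RPM per kb, against 3.29, 3.83 and 4.36 in the ES libraries, 4.36 in iPS cells and 5.21 in liver. At regions acetylated in ES cells and NPCs the MEF median was 3.01, at those of NPCs and liver 3.64, at those of ES cells and liver 2.10, and at those of ES cells alone 0.630. Around the midpoints, mean MEF H3K4me1 was 7.65 within 200 bp and 2.98 at 4000 to 5000 bp. MEF H3, the background of the same cells, stayed at 0.870 and 0.787. In bulk chromatin, a mark in fewer cells and less mark per cell cannot be told apart.

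**Figure D4:**
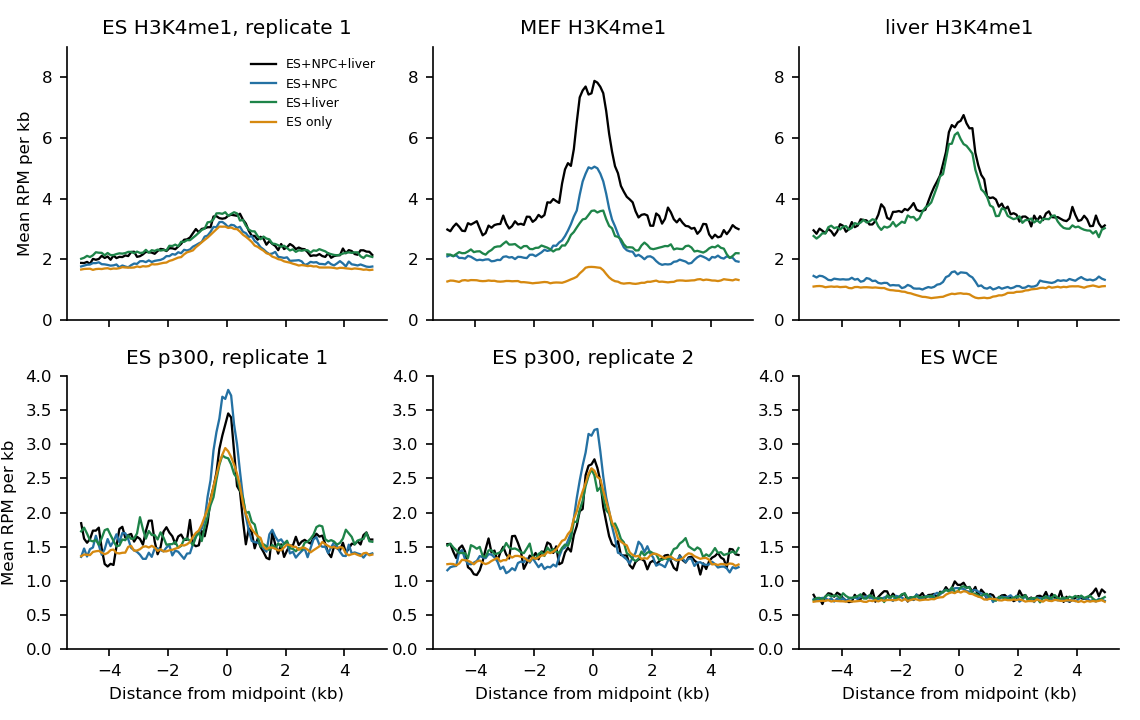
Mean signal (vertical axis, RPM per kb) by distance from the region midpoint (horizontal axis, kb) for the shared regions (black) and for regions acetylated in ES cells and NPCs, in ES cells and liver, and in ES cells alone. MEF H3K4me1 peaks at 7.65 over shared regions, above the other classes drawn, while WCE stays near 1 in every class.

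H3K4me1 levels were compared between cell types with limma over 38657 distal H3K27ac regions, in which all 512 shared regions were tested. The spread came from the ES libraries and was taken to hold for the single libraries too. In MEFs, 302 shared regions were higher than in ES cells (59.0%, against 29.1% of all tested regions), 59 were lower (11.5%, against 30.1%) and 151 passed in neither direction at an adjusted p of 0.05. The median log2 difference of MEF minus ES was 1.12 over shared regions and −0.05 over all regions. The share called higher was 34.9% at regions of ES cells and NPCs, 24.2% at those of ES cells and liver and 9.88% at those of ES cells alone, while regions of NPCs and liver reached 67.3% and those of NPCs alone 54.4%. Thus a high share of MEF-higher calls was not limited to shared regions. With libraries scaled to their totals, 44.9% of shared regions were called higher in MEFs and 13.7% lower, against 22.5% and 33.9% of all regions. The median then moved from 1.12 to 0.75 over shared regions and from −0.05 to −0.34 over all regions.

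The largest rise in MEFs was at chr11:60523001-60524000. Its H3K4me1 was 1.11, 2.34 and 1.45 in ES cells, 2.62 in iPS cells, 10.4 in liver and 21.6 in MEFs (309 reads). All ES values lay far below the MEF and liver values, and the log2 difference of MEF minus ES was 3.98 (SE 0.395, adjusted p = 0.000175 by limma). The region chr11:117170001-117171000, close to the 7 kb region on that chromosome, had 1.11, 1.49 and 0.807 in ES cells, 3.49 in iPS cells, 1.64 in liver and 16 in MEFs. It rose by 3.96 (SE 0.423, adjusted p = 0.000226 by limma) in MEFs, while liver was near ES cells. At chr17:55616001-55617000, H3K4me1 was 0.804, 0.746 and 1.13 in ES cells, 2.62 in iPS cells, 3.69 in liver and 13.1 in MEFs. That is a log2 difference of 3.94 for MEF minus ES (SE 0.367, adjusted p = 0.000138 by limma), at a region whose H3K27ac was only 2.06 to 2.77 in the 4 libraries.

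Of the 10 widest or most acetylated regions named above, 8 rose in MEFs, 1 fell and 1 (chr11:60016001-60020000) passed in neither direction. For comparison, 59.0% of all shared regions and 29.1% of all tested regions were called higher in MEFs. The 10 were picked by width or by H3K27ac, and wide regions hold more reads, so their count is a description. H3K4me1 at chr15:77625001-77631000 was 5.03, 6.07 and 5.19 in ES cells, 6.54 in iPS cells, 5.51 in liver and 20.4 in MEFs (1750 reads). Only MEFs stood apart there, with a log2 difference of 2.30 (SE 0.224, adjusted p = 0.000163 by limma). Its neighbour chr15:77641001-77642000 had 5.53, 4.47 and 6.78 in ES cells, 3.92 in iPS cells, 6.83 in liver and 17.4 in MEFs, with a difference of 2.00 (SE 0.274, adjusted p = 0.000593 by limma). At chr11:117160001-117167000 the values were 4.42, 5.86 and 5.53 in ES cells, 7.29 in iPS cells, 5.58 in liver and 11.6 in MEFs, a difference of 1.54 (SE 0.219, adjusted p = 0.000708 by limma). The region chr8:73581001-73585000 went the other way, with 3.77, 4.10 and 4.11 in ES cells, 4.90 in iPS cells, 5.23 in liver and 1.07 in MEFs. It fell by 1.47 on the log2 scale in MEFs (SE 0.214, adjusted p = 0.000782 by limma).

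The largest falls in MEFs left almost no reads. At chr7:46616001-46617000, H3K4me1 was 3.62, 4.90 and 4.20 in ES cells, 3.49 in iPS cells, 1.37 in liver and 0.0700 in MEFs, which is 1 read of the deepest H3K4me1 library. The log2 difference was −3.69 (SE 0.384, adjusted p = 0.000209 by limma). The region chr11:100131001-100132000 also had 1 MEF read, with 2.31, 3.62 and 4.68 in ES cells, 5.67 in iPS cells and 6.56 in liver, and a difference of −3.40 (SE 0.397, adjusted p = 0.000312 by limma). At chr11:107154001-107155000 the MEF library had 3 reads (0.210), against 4.73, 5.01 and 5.00 in ES cells, 5.23 in iPS cells and 3.14 in liver, a difference of −3.28 (SE 0.317, adjusted p = 0.000158 by limma). In iPS cells, which were made from MEFs, H3K4me1 at these 3 regions lay close to the ES values and far above MEFs.

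**Figure D5:**
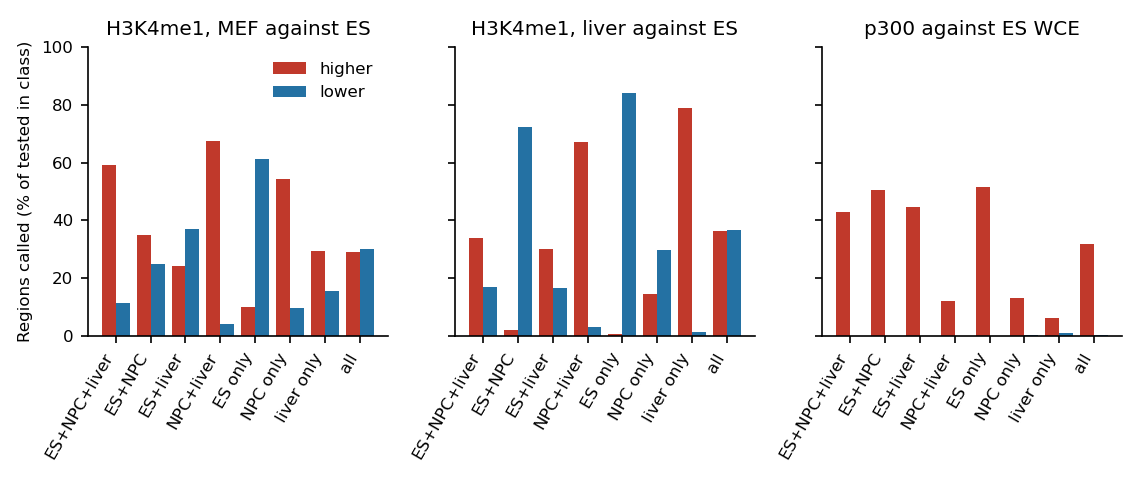
Share of tested regions (vertical axis, %) called higher (red) or lower (blue) by limma at an adjusted p of 0.05, for the 7 classes of distal H3K27ac and all regions (horizontal axis), in MEF against ES H3K4me1, liver against ES H3K4me1 and ES p300 against WCE. Shared regions are higher in MEFs at 59.0%, in liver at 33.8% and over WCE for p300 at 42.9%.

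In liver, 173 shared regions had more H3K4me1 than in ES cells (33.8%, against 36.3% of all tested regions) and 87 had less (17%, against 36.7%), while 252 passed in neither direction. The median log2 difference of liver minus ES was 0.29, against 0.03 over all regions. The share called higher was thus near the background, and the regions of ES cells and liver gave close values of 30.1% higher and 16.7% lower. The count of lower regions rested on the ES libraries used. It was 87 with all 3 and 53 (10.4%, against 32.2% of all regions) without the library from transgene-bearing cells. Without the inbred C57BL/6 library it was 42 (8.2%, against 32.2%). The liver and MEF comparisons share the ES libraries. For MEFs, the count of lower regions went from 59 to 37 without either of these libraries (7.24% and 7.23%, against 23.4% and 26.2% of all regions).

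The 3 regions with the largest rise in liver had little H3K4me1 in any other cell type. At chr11:119822001-119823000 it was 0.402, 0.320 and 0.484 in ES cells, 0 reads in iPS cells, 0.350 in MEFs and 13.8 in liver (101 reads). The log2 difference of liver minus ES was 4.25 (SE 0.484, adjusted p = 0.000176 by limma), yet ES H3K27ac was 2.40 and 2.86, just above the limit. At chr2:26221001-26222000 H3K4me1 was 0.603, 1.07 and 0.323 in ES cells, 0.560 in MEFs, 0 reads in iPS cells and 17.9 in liver, a difference of 4.20 (SE 0.595, adjusted p = 0.000454 by limma). At chr17:55842001-55843000 it was 0.402, 0.746 and 0.968 in ES cells, 0.350 in MEFs, 0 reads in iPS cells and 14.4 in liver, a difference of 3.80 (SE 0.519, adjusted p = 0.000386 by limma). Liver H3K27ac at these regions was 11.1, 8.52 and 20, while ES and NPC values were 2.05 to 3.33. Liver WCE, DNA sequenced without an antibody, stood at 1.27, 2.04 and 3.05 there, against a median of 1.02 over the shared regions. Its part in the result was not tested.

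The regions with the largest falls in liver had liver H3K27ac of at least 2 RPM by the rule, and at 2 of the 3 it was close to that limit. At chr2:157031001-157032000, H3K4me1 was 2.61, 4.15 and 5.32 in ES cells, 2.18 in iPS cells, 0.630 in MEFs and 0.410 in liver (3 reads). The log2 difference of liver minus ES was −2.74 (SE 0.439, adjusted p = 0.000805 by limma), with H3K27ac of 4.91 and 5.12 in ES cells, 4.85 in NPCs and 4.16 in liver. At chr7:112488001-112489000 H3K4me1 was 6.94, 6.50 and 5.65 in ES cells and 0.956 in liver, a difference of −2.59 (SE 0.307, adjusted p = 0.000212 by limma). NPC H3K27ac reached 16 there, with 2.77 in liver. At chr1:159254001-159255000 H3K4me1 was 3.22, 3.09 and 2.90 in ES cells and 0.410 in liver, a difference of −2.43 (SE 0.378, adjusted p = 0.000698 by limma). Liver H3K27ac was 2.97 at that region.

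Over the whole set, the direction of H3K4me1 in liver went with the liver acetylation. The 173 regions higher in liver had a median liver H3K27ac of 6.54 and the 87 lower ones 3.07. The lower ones had more ES H3K27ac, with medians of 5.93 and 5.59, against 3.42 and 3.81 at the higher ones. These medians are descriptions, since H3K27ac chose the regions.

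In iPS cells, limma called 0 of 512 shared regions higher and 0 lower than in ES cells, as it did over all 38657 regions (0.0% in each direction). At an unadjusted p under 0.05 there were 43 higher (8.4%, against 3.6% of all regions) and 58 lower (11.3%, against 12.5%). limma-voom called 0 and 0, with 24 higher (4.69%, against 2.87%) and 4 lower (0.781%, against 0.279%) before adjustment. A prior count of 0.5 called 6 lower (1.17%, against 1.46%). The median log2 difference was 0.06. With 1 iPS library set against the spread of 3 ES libraries of different genotype, this does not show equal levels: at chr5:123637001-123638000 the values were 3.52, 4.15 and 5.00 in ES cells and 2.18 in iPS cells (5 reads), a log2 difference of −1.05 with an SE of 0.321.

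p300, the acetyltransferase itself, was also not used to choose the regions. Its median over shared regions was 2.16 and 1.70 RPM per kb in the 2 ES libraries, against 0.863 in ES WCE. Around the midpoints it stood at 3.32 and 2.71 within 200 bp and at 1.57 and 1.37 at 4000 to 5000 bp, while ES WCE went from 0.961 to 0.784. Taking p300 as present where it was at least 2 times WCE plus 0.1 in both libraries, 204 of 512 shared regions carried it (39.8%, against 20.8% of all distal H3K27ac regions). The share was 45.7% at regions of ES cells and NPCs, 37.2% at those of ES cells and liver and 42.4% at those of ES cells alone. Shared regions were therefore within the range of the other classes acetylated in ES cells. Each library alone gave 296 (57.8%, against 30.1% of all regions) and 225 (43.9%, against 24.9%), and a 3-fold limit on both gave 20.7%, against 11.1%.

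In the limma test of p300 against WCE, 471 of the 512 shared regions had enough reads, and a region could pass that filter through p300 alone. Of those, 202 were higher (42.9%, against 31.8% of all 26511 tested regions) and 0 lower (against 0.313%). The share higher was 50.5% at regions of ES cells and NPCs, 44.6% at those of ES cells and liver and 51.5% at those of ES cells alone. Shared regions were below each of these classes, also with TMM scaling and under limma-voom. The p300 calls depended on the method. TMM scaling called 22.1% of tested shared regions higher and 1.06% lower, against 17.2% and 7.68% of all tested regions. Under limma-voom 11.9% were higher, below the 13.2% of all tested regions, so the order of 42.9% and 31.8% was turned. Only 1 WCE library was used, so the p300 pair was the sole source of spread at a region. The fit pooled that spread over all tested regions (26500 degrees of freedom). A region's own pair thus had almost no weight in its p-value.

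The 5 regions with the highest p300 fold over WCE differed in their acetylation. They were picked by the same values that limma tests, so their p-values are descriptions. At chr11:20131001-20132000 p300 was 27.6 and 30.8 (192 and 254 reads), against 0.719 in WCE, with a log2 difference of 4.89 (SE 0.258, adjusted p = 7.07e-77 by limma, and 0.000305 under limma-voom). H3K27ac there was 6.96 and 5.95 in ES cells, 2.79 in NPCs and 3.96 in liver, and H3K4me1 was only 0.980 in MEFs and 1.5 in liver. At chr17:28784001-28785000 p300 was 26.4 and 20.8 against 0.863, a difference of 4.39 (SE 0.268, adjusted p = 1.96e-57 by limma, and 4.21e-05 under limma-voom). Its H3K27ac was 14.3 and 13.1 in ES cells, 3.96 in NPCs and 2.38 in liver. At chr1:134150001-134151000 p300 was 18.4 and 15.5 against 0.575, a difference of 4.34 (SE 0.301, adjusted p = 8.07e-45 by limma, and 0.0212 under limma-voom). H3K27ac was 14 and 11.1 in ES cells, 3.67 in NPCs and 4.36 in liver, so ES cells were the highest at all 3 of these regions. A bin with H3K4me3 lay 13 kb from chr11:20131001-20132000, 1 kb from chr17:28784001-28785000 and 2 kb from chr1:134150001-134151000. ES H3K4me3 was 1.29 RPM (3 reads) at the first and last of these, just under the limit of 1.5.

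The other two had at most 1 WCE read. At chr2:116710001-116711000 p300 was 6.18 and 5.22 against 0.144 in WCE (1 read), and the call was lost under limma-voom (log2 difference 3.84, adjusted p = 2.80e-19 by limma, and 0.600 under limma-voom). At chr5:123637001-123638000 p300 was 2.30 in both libraries and WCE had 0 reads (adjusted p = 0.000115 by limma, and 0.597 under limma-voom). ES H3K27ac at the latter was 13.2 and 14.2, among the higher values, with p300 near its median.

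Shared regions with p300 were the more acetylated in ES cells. Median ES H3K27ac was 5.02 and 4.88 at the 204 regions with p300 and 3.42 and 3.81 at the 308 without. NPC H3K27ac was 3.82 in both groups, and liver H3K27ac 3.96 and 4.16. H3K4me1 marked all 4 cell types at 61.8% of regions with p300 and at 50% of those without. ES WCE, which enters the p300 call, had medians of 0.719 with p300 and 1.01 without. None of these differences was tested, and the H3K27ac medians are descriptions, since H3K27ac chose the regions.

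Rfx1, a DNA-binding protein of the RFX family, was mapped in NPCs in 1 shallow library, in which 1 read stood for 1.44 RPM. No Rfx1 read fell in 248 shared regions. With at least 5 reads and at least 2 times ES WCE plus 0.1, Rfx1 was counted at 51 regions (9.96%, against 4.11% of all distal H3K27ac regions). The share was 12.6% at regions of ES cells and NPCs, 8.40% at those of NPCs alone, 6.61% at those of NPCs and liver and 1.69% at those of ES cells and liver. With repeated reads kept it was 27.7% of shared regions, against 14.8% of all. There was no replicate and no NPC background, so no test was made.

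A few Rfx1 values were far above the rest. At chr5:134720001-134721000 Rfx1 was 125 RPM per kb (87 reads, exact 95% Poisson interval 100 to 155), against 0.431 in ES WCE. NPC H3K27ac was 7.05 there, below the 10.6 and 11.8 of ES cells. At chr2:27561001-27563000, one of the most acetylated shared regions, Rfx1 was 113 (157 reads), with H3K4me1 of 18.0 in MEFs and 11.8 in liver. At chr5:114400001-114401000 it was 82.1 (57 reads), with NPC H3K27ac at 9.10 above the ES values of 3.42 and 4.05. A bin with H3K4me3 lay 1 kb from chr5:134720001-134721000, 13 kb from chr2:27561001-27563000 and 6 kb from chr5:114400001-114401000. The first of these had ES H3K4me3 of 1.29 RPM (3 reads), just under the limit of 1.5. The median Rfx1 level over the shared regions was 0.720, less than 1 read in a 1 kb region.

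Input DNA was slightly higher at shared regions than over all distal H3K27ac regions, and classes acetylated in ES cells and 1 more cell type came close. Mean ES WCE was 0.9055 RPM per kb at shared regions and 0.7185 over all. Regions of ES cells and NPCs had 0.865, those of ES cells and liver 0.872 and those of NPCs and liver 0.744. Mean liver WCE was 1.02 at shared regions, 0.757 over all, and 0.942, 0.935 and 0.890 at those classes in the same order. WCE reached 2 RPM per kb in ES cells or liver at 51 shared regions (9.96%), against 2.91% of all distal H3K27ac regions, with 6 in ES cells and 46 in liver. Shared regions were also narrower (mean 1.199 kb, against 1.814 kb over all), and the effect of width on these shares was not tested. Without the 51 regions, H3K4me1 was higher in MEFs at 59.0% and p300 was counted at 42.3%, close to the values over all shared regions. Beyond 5 kb from H3K4me3, 102 of 171 shared regions were higher in MEFs (59.6%), against 200 of 341 nearer ones (58.7%). Shares over all distal H3K27ac regions were not computed under these filters. The part of input DNA or of promoter distance in the results was not tested.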

How the data were processed

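The values the authors deposited are signed read positions under chromosome names, 1 file a library, with repeated positions kept, and are neither counts per feature nor a normalized signal. The sources used here name no aligner or build, and the positions fit the mm8 chromosome lengths on 20 of 20 chromosomes. Reads were counted once per position and strand, moved 100 bp and scaled to the distinct autosomal reads. Regions in the 7 classes of distal H3K27ac were tested with limma 3.58.1 (R 4.3.3), on log2 CPM with a prior count of 2, TMM scaling for H3K4me1 and library totals for p300, at least 10 reads in 1 library and Benjamini-Hochberg adjustment over all tested regions. On simulated counts for liver against ES, over 32702 regions, 12 of 100 regions changed 2-fold and 69 of 100 changed 4-fold were recovered, with 11 false calls. The simulation gave every library the ES means and a spread set by hand. It therefore does not give the rate of recovery or of false calls in these libraries. Named regions were the 5 with the highest lowest H3K27ac, the 5 widest, the 5 highest in p300 fold, the 3 largest rises and falls in liver and MEFs, the 3 highest in Rfx1 fold and the 3 on either side of the limits. chr5:123637001-123638000 is named again for iPS cells, chosen after its values were seen. Replicates differed by more than sampling noise (chi-square per degree of freedom 1.38 to 2.43). p300 library 2 is called p301 in 1 label field and was used as p300. The members and lists were chosen with earlier results of these data known.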

Additional observations from a re-analysis of the deposited data

How the results depend on the processing

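The number of shared regions was 261 with an H3K4me3 limit of 1.0 RPM, 166 with H3K27ac of at least 3 RPM and 328 at 3-fold over H3. Similar numbers could hold different regions: 487 with bins moved by 500 bp overlapped 279 of the 512, 433 with repeated reads kept overlapped 368, and 513 with reads not moved overlapped 421. It was 595 to 613 with either ES H3K27ac library left out. Leaving out each ES H3K4me1 library gave 25.8 to 42.2% of shared regions higher and 8.2 to 13.9% lower in liver. Over all tested regions these shares were 31.3 to 40% and 32.2 to 34%, so the share higher in liver stayed near the background. In MEFs 49.1 to 62.1% of shared regions were higher and 7.23 to 9.38% lower, against 22.4 to 30.9% and 23.4 to 26.2% of all tested regions. A prior count of 0.5 called 1.17% lower in iPS cells (all regions 1.46%). For p300 against WCE, TMM scaling called 22.1% higher and 1.06% lower (all tested regions 17.2% and 7.68%) and limma-voom 11.9% higher (all 13.2%), so no excess over all regions was seen under limma-voom. The 3-fold limit gave p300 at 20.7% (all 11.1%), 1 p300 library at a time gave 43.9 to 57.8%, and repeated reads kept gave Rfx1 at 27.7% (all 14.8%). The cause of these changes was not tested, beyond what a stricter limit does by construction. Of 121 alternatives over 17 single regions, 119 kept the direction and side of the threshold, and 2 p300 calls were lost under limma-voom (chr5:123637001-123638000 and chr2:116710001-116711000). Leaving out a p300 library leaves no residual degrees of freedom against 1 WCE library, so that limma fit was not run. The alternatives without regions of high WCE, beyond 5 kb from H3K4me3 and with 1 p300 library were chosen after seeing the data. No paired analysis was possible because each limma comparison had only 1 library in 1 of its groups (liver, MEF or iPS H3K4me1, or ES WCE). Depth limits the single Rfx1, iPS and ES H3K4me3 libraries most.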
